A study of Mus musculus with 2 samples.

Results

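Atf3, Jun, Junb, Jund, Fos, Fosb and Fosl2 encode transcription factors of the basic leucine zipper (bZIP) family. The 7 genes were chosen by name as the AP-1 subunits plus Atf3, out of 31053 genes in the count matrices. Their unique molecular identifiers (UMIs) were counted in nuclei of the injured mouse cortex. All animals were of the strain Atf3-CreER::Sun1-sfGFP and over 7 weeks old. Their genotype joined Atf3-CreER:+/wt and SUN-SfGFP:+/wt. All animals received a mild traumatic brain injury (mTBI), then tamoxifen at 4 and 5 days post injury (dpi), and the ipsilateral cortex was taken at 7 dpi. GFP-positive nuclei were sorted and sequenced as 1 library from 4 pooled males and 1 from 4 pooled females.

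AP-1 factors bind DNA as dimers, in which a Jun protein pairs with another Jun protein, a Fos protein or a related bZIP protein such as Atf3. Fos, Fosb and Junb are immediate early genes that respond briefly to neuronal activity, whereas Jun and Atf3 are known to stay high for days in neurons with damaged axons. Jun is activated by JNK kinases, and Jun and Atf3 take part both in the death of injured neurons and in regrowth of axons.

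The reporter was switched on by Cre expressed from the Atf3 locus, so the nuclei were selected through the very gene that heads the family. No uninjured nuclei were sequenced, so no level below is a response to injury. The male library held 4044 called nuclei with 11007366 UMIs, and the female library 4214 with 23202343. Of these, 4003 and 4168 carried a deposited cell type, with medians of 1742 and 3710 UMIs. The libraries shared 1 barcode. Sex, library and depth cannot be told apart. A label of the female library states male, while its title and the deposited table state female. Paired values are given for the male library first. Xist, transcribed from the inactive X chromosome, reached 3.33 and 1638 CPM (UMIs scaled to all UMIs of the summed nuclei).

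Levels were followed over 9 neuronal labels with at least 50 nuclei, 6 excitatory (L2/3 IT CTX-1, L2/3 IT CTX-2, L4/5 IT, L5 PT, L6 IT, L6 CT) and 3 inhibitory (Pvalb, Sst, Vip). The other labels were Micro-PVM (microglia and macrophages), Astro, Oligo, VLMC, SMC-Peri, Endo and Unknown. Endo held 5 male and 0 female nuclei and was given no level. Markers were checked against the labels, without subclass markers for Pvalb, Sst or Vip. The study reports that its interneurons lacked such subclass markers although they expressed Gad2. All 10 microglial markers were present in Micro-PVM, at a summed 6378 and 6341 CPM. The 6 astrocyte markers summed to 14740 and 11971 CPM in Astro. In SMC-Peri the 3 mural markers summed to 45.3 and 55.6 CPM, below its astrocyte markers at 771 and 717 CPM, so the data do not bear out that label. In VLMC the 4 VLMC markers summed to 281 and 437 CPM, against 1514 and 1529 CPM for astrocyte markers. In L6 IT the 4 excitatory markers summed to 231 and 209 CPM and the 4 inhibitory ones to 366 and 153 CPM, so the markers bear out its excitatory name only in part. In L5 PT the 2 markers of that type summed to 64.9 and 48.3 CPM, below the 2 L2/3 IT markers at 139 and 137 CPM. Nearly all of the latter was Cux1 (129 and 131 CPM). Cux2 stood at 9.80 and 5.78 CPM, below Bcl11b of the L5 PT markers (61.9 and 42.5 CPM). In L2/3 IT CTX-1 the L2/3 IT markers summed to 924 and 809 CPM and the L5 PT markers to 15.0 and 12.7 CPM. The L5 PT markers were higher in L6 CT (110 and 121 CPM) and Unknown (356 and 335 CPM) than in L5 PT. That label too is therefore borne out only in part.

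The results turn most on Atf3 and Jun, so the stretches before their start sites are shown first. In the GRCm38 annotation, Atf3 (ENSMUSG00000026628) lies on the minus strand at chr1:191170296-191218039, where exons make up 4.51% of the gene body. Jun (ENSMUSG00000052684) is a single exon on the minus strand at chr4:95049034-95052222. The 250 bases before each RefSeq start site (GRCm38.p6, minus strand, 5′ to 3′) were taken at chr1:191183334-191183583 for Atf3 and chr4:95052223-95052472 for Jun. Capitals mark 8-base relatives of the sequence bound by AP-1 and CREB-type dimers.
Atf3: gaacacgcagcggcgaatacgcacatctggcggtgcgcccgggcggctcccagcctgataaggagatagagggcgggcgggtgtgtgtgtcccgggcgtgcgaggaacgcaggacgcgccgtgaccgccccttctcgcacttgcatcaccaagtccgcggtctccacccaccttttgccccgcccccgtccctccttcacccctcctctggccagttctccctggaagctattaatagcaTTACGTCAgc
Jun: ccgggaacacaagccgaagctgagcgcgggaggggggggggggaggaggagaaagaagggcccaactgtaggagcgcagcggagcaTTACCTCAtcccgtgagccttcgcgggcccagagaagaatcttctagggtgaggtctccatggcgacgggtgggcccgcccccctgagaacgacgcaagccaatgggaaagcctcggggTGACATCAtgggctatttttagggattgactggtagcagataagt
In Atf3 the letters TTACGTCA ended 3 bases before the start site, in a stretch inside the annotated gene body of which 7 bases overlap an annotated exon. In Jun, TTACCTCA stood at -164 to -157 and TGACATCA at -45 to -38. Each of these 3 words occurred in 1 of the 7 members. Among 32851 promoters of the same length, searched on both strands, 0.447% held TTACGTCA, 0.728% TTACCTCA and 2.93% TGACATCA. The words were set by hand and not by a rule, so these shares are no test of enrichment. Neither TGANTCA (6.75% of promoters) nor TGACGTCA (1.55%) was found in any member. The shorter TGACG, which overlaps TTACGTCA in Atf3, occurred in Atf3, Junb, Fos and Fosb, 4 of 7 members, against 17.8% of promoters. The stretch of Fosl2 lies wholly in annotated exons inside the gene, 6 bases of that of Fosb overlap an exon, and that of Jund lies before a RefSeq start site that is upstream of the annotated gene, so these counts cover unlike stretches. A match is a description of letters only.

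Atf3, the stress-induced member, was most abundant in Pvalb interneurons in both libraries, at 319 and 460 CPM (389 ± 100.0, mean ± SD, n = 2 libraries). Vip followed at 187 and 206 CPM. Sst (158 and 186 CPM) and L6 IT (171 and 171 CPM) came next and swapped places between libraries. The order then ran from L2/3 IT CTX-2 (109 and 97.6 CPM) through L5 PT (65.5 and 98.9 CPM) to L2/3 IT CTX-1 (55.4 and 79.4 CPM). L6 CT stood at 14.3 and 117 CPM, the largest ratio between libraries among the neuronal labels (8.14), and L4/5 IT at 44.5 and 31.0 CPM. The male value of L6 CT rests on 3 UMIs, and 22 of its 52 female UMIs lay in a single nucleus. Only Pvalb, Vip and L6 IT stood above the next label in the order in both libraries with ranges that did not overlap, plus Micro-PVM further down. In the other neuronal labels the ranges overlapped with those of a neighbour.

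Outside neurons, Atf3 reached 26.5 and 35.9 CPM in Micro-PVM, 6.16 and 18.9 CPM in VLMC, 0 and 21.8 CPM in Astro, 9.07 and 0 CPM in SMC-Peri and 4.25 and 5.05 CPM in Unknown. Oligo was at 18.5 and 102 CPM, and its 20 female UMIs lay in 2 of 42 nuclei. Barcodes with at most 100 UMIs and no called nucleus, a measure of free RNA, held Atf3 at 39.3 and 73.9 CPM. Atf3 in Micro-PVM, Unknown, VLMC, Astro and SMC-Peri was below this level in both libraries, which does not show how much of it was free RNA. The same holds for L4/5 IT of the female and L6 CT of the male library. The other 7 neuronal labels stood above it in both.

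**Figure D1:**
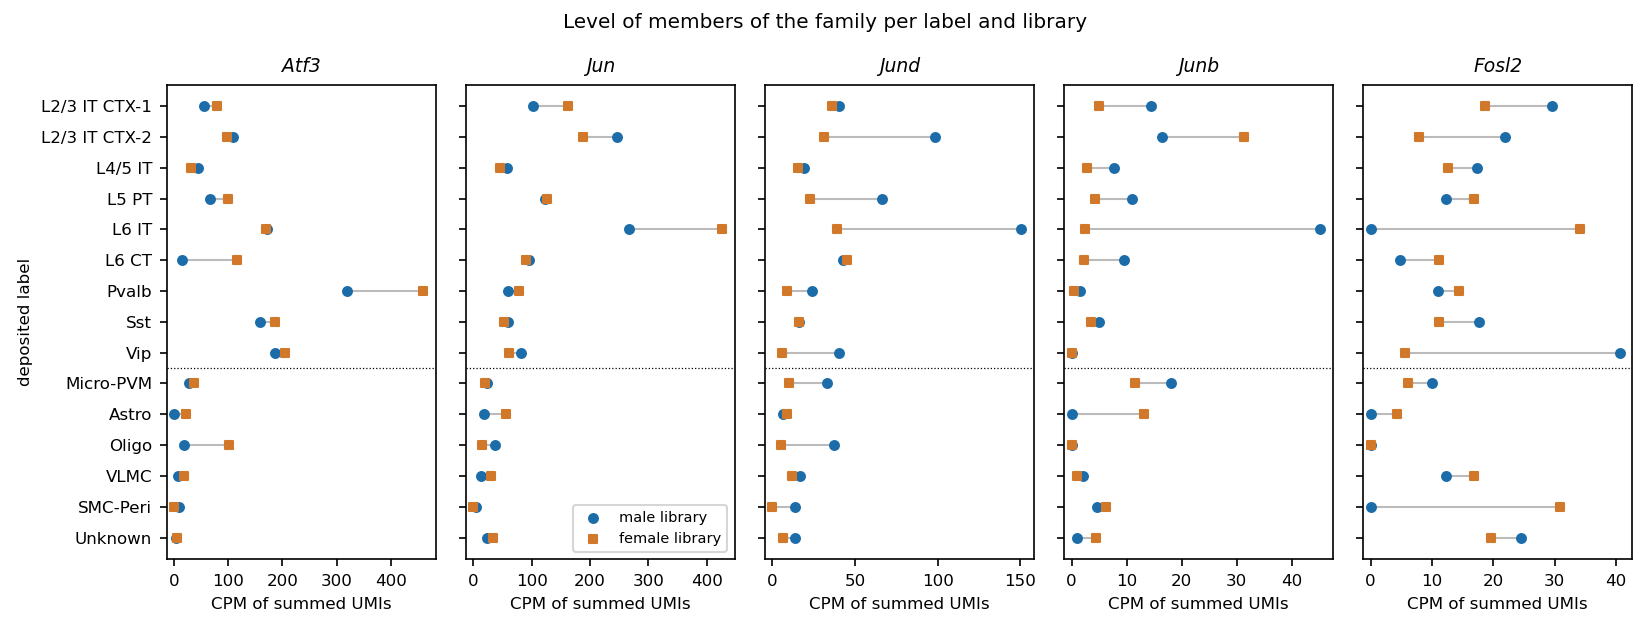
Level of 5 members per deposited label, as CPM of summed UMIs on linear axes that differ between panels. Circles are the male and squares the female library, and a dotted line parts the 9 neuronal labels from the rest. Atf3 peaks in Pvalb (319 and 460 CPM) and Jun in L6 IT (266 and 426 CPM).

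The share of nuclei with an Atf3 UMI was also highest in Pvalb, while the order below it differed from that by CPM. Sst (33.9% and 58.0%) stood above Vip (35.3% and 51.9%) by mean share. In Pvalb the share was 59.7% (exact Clopper-Pearson 95% interval 50.3–68.6%) and 86.0% (79.4–91.1%). It was 0.889% (0.108–3.17%) and 4.71% (2.05–9.06%) in Unknown, whose nuclei had median depths of 3314 and 7918 UMIs against 4576 and 11808 in Pvalb. Nuclei with at least 2300 UMIs were also thinned to that depth and shallower ones left out, 385 of 1344 and 117 of 1155 among neurons and 65 of 225 and 10 of 170 in Unknown. After thinning, over this deeper subset, 45.3% and 57.1% of Pvalb nuclei and 1.25% and 1.25% of Unknown nuclei kept an Atf3 UMI. Thinning narrowed the gap between the libraries in Pvalb without closing it. Averaged over libraries, the share with Atf3 was 30.3 percentage points higher in inhibitory than in excitatory nuclei, and 23.6 points higher after thinning. The same gap for Jun was -6.39 points, and -6.77 after thinning. Intervals cover counting error only.

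**Figure D2:**
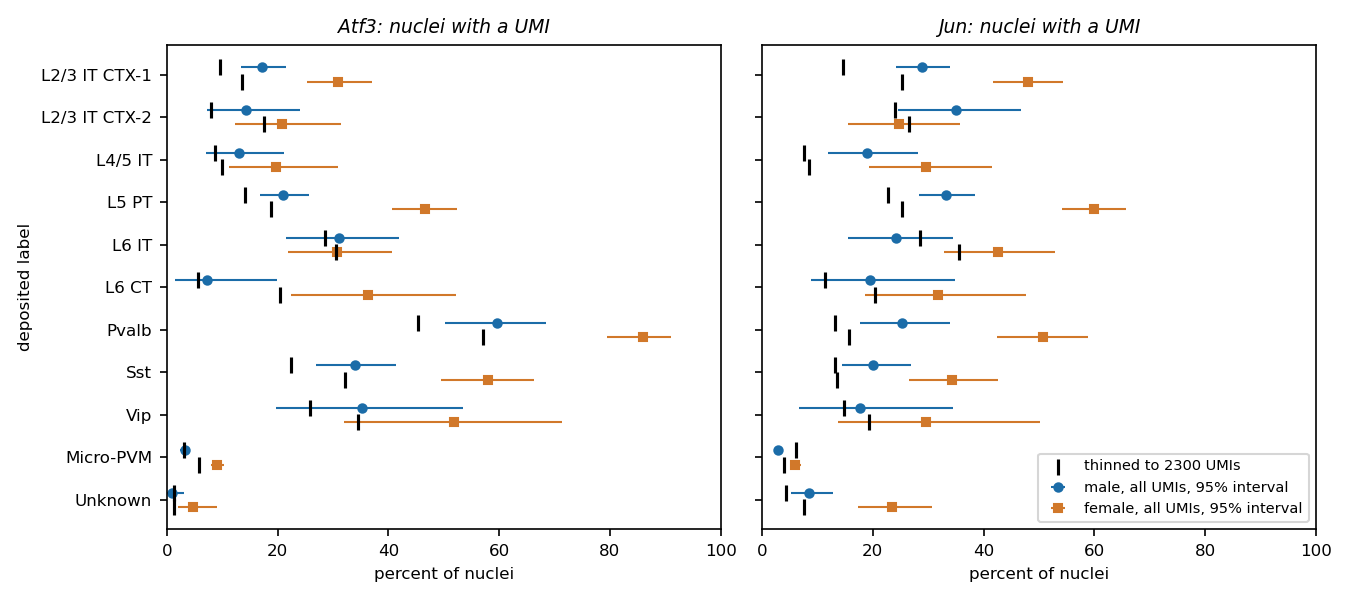
Percent of nuclei with at least 1 UMI of Atf3 or Jun, per label. Circles (male) and squares (female) are shares with exact 95% intervals, and black ticks the shares after thinning to 2300 UMIs, over nuclei of at least that depth. Pvalb stands highest for Atf3 (59.7% and 86.0%), and Jun shows no such peak among interneurons.

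Inhibitory labels carried more Atf3 than excitatory labels, by a log2 fold change of 1.61 ± 0.206 (SE; edgeR quasi-likelihood test, Benjamini-Hochberg adjusted p = 2.74e-06), or 3.06-fold. Both libraries gave this direction, with log2 ratios of 1.91 and 1.65. Of the 7 members, 5 passed the filter on low counts (all but Fos and Fosb). Junb passed only through excitatory labels where it is high, so its test is not read. Among the others, Atf3 was called higher and Jun and Jund lower in inhibitory neurons, and Fosl2 was not called, in a contrast where 24.6% of all genes were called (11.9% higher, 12.7% lower). Within the interneurons, Atf3 was higher in Pvalb than in Sst by 1.19 ± 0.321 on the log2 scale (edgeR, adjusted p = 0.0206), in both libraries. Here 1 of 5 members was called against 7.79% of all genes (3.99% higher, 3.8% lower), and with DESeq2 the same size of difference had an adjusted p of 0.0959. With the library as a block 1023 genes were called here in place of 675, and Atf3 kept its call. Without neurons that held 2 or more microglial marker UMIs, Atf3 differed by 0.54 ± 0.601 and lost its call (edgeR, adjusted p = 1).

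Neurons labelled L5 PT, a type that projects out of the cortex and that the study sets against upper layers, were compared with L2/3 IT neurons. None of the 5 members tested was called by edgeR, against 12.8% of all genes (6.76% higher, 5.99% lower), with 0 at an unadjusted p under 0.05 and 0 by DESeq2. Atf3 differed by 0.05 ± 0.321 on the log2 scale and Jun by -0.40 ± 0.220, for which edgeR gave an adjusted p of 0.292. Without neurons that held 2 or more microglial marker UMIs, where few nuclei remained, Jun and Jund reversed direction in this contrast. Some genes known downstream of Atf3 and Jun were called in this contrast. Of 14 tested of the 18 on that list, 5 were higher and 0 lower in L5 PT, beside 6.76% and 5.99% of all genes, with a median log2 fold change of 0.14 against -0.02 over all genes. Sprr1a, a small proline-rich protein of regrowing axons, rose by 1.31 ± 0.255 (edgeR, adjusted p = 9.48e-04), with log2 ratios of 2.14 and 0.84 in the libraries. Cd44, a hyaluronan receptor, rose by 1.44 ± 0.167 (edgeR, adjusted p = 2.84e-06), and Itga7, a laminin receptor subunit, by 1.67 ± 0.354 (edgeR, adjusted p = 0.00206). Whether these genes differ from Atf3 and Jun in their contrast was not tested.

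Jun, the AP-1 subunit phosphorylated by JNK, had another order of labels. L6 IT stood first at 266 and 426 CPM (346 ± 113, SD, n = 2 libraries) and L2/3 IT CTX-2 second at 245 and 187 CPM, each above the next label in both libraries with ranges apart. L2/3 IT CTX-1 (102 and 163 CPM) and L5 PT (123 and 126 CPM) swapped places. L6 CT followed at 95.5 and 89.8 CPM, and L4/5 IT was lowest of the neuronal labels by mean, at 58.0 and 45.1 CPM. The interneurons lay close together, Vip at 81.1 and 61.1 CPM, Pvalb at 59.9 and 77.4 CPM and Sst at 59.0 and 52.2 CPM, close to the free RNA at 51.8 and 55.4 CPM. Pvalb, first for Atf3, was therefore seventh for Jun among all labels by mean. Across the 9 neuronal labels the CPM of Atf3 and Jun had a Pearson r of 0.02 and 0.04, where all points share a library and differ in depth.

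Jun was lower in inhibitory than in excitatory labels, with a log2 fold change of -0.98 ± 0.176, or 1.98-fold (edgeR, adjusted p = 1.90e-04). The ratio had the same direction in both libraries, -0.87 and -1.02. Much of it lay in L6 IT and L2/3 IT CTX-2. Without these labels, an alternative chosen after seeing the data, Jun differed by -0.49 ± 0.174 (edgeR, adjusted p = 0.0482). Jun did not separate Pvalb from Sst (0.36 ± 0.290), where edgeR gave an adjusted p of 0.657.

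The labels rich in Jun were also the shallow ones and the neuronal labels richest in mRNA of ribosomal proteins and in microglial markers. These markers summed to 833 and 1578 CPM in L6 IT and to 671 and 1831 CPM in L2/3 IT CTX-2, against 500 and 889 CPM over all neurons. L6 IT nuclei had means of 2290 and 4065 UMIs and L2/3 IT CTX-2 nuclei of 2381 and 3326, against 4432 and 9559 over all neurons. UMIs of 83 ribosomal protein genes summed to 2676 and 1033 CPM in L6 IT and to 3699 and 1156 CPM in L2/3 IT CTX-2, against 1209 and 716 CPM over all neurons. Across the 9 neuronal labels, Jun CPM had r = 0.96 and 0.81 with this sum, and r = -0.88 and -0.66 with mean depth. Jund had r = 0.89 and 0.83 with the ribosomal sum, while Atf3 had r = -0.12 and -0.18. With the percent of mitochondrial UMIs Atf3 had r = -0.73 and -0.43, a relation that was not tested. Among the genes most like Jun over these labels, by the lower r of both libraries, were Edf1 (0.93) and Rpl35 (0.90), the latter a ribosomal protein gene. The part of depth, ribosomal mRNA and microglial RNA in the Jun and Jund differences was not tested.

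**Figure D3:**
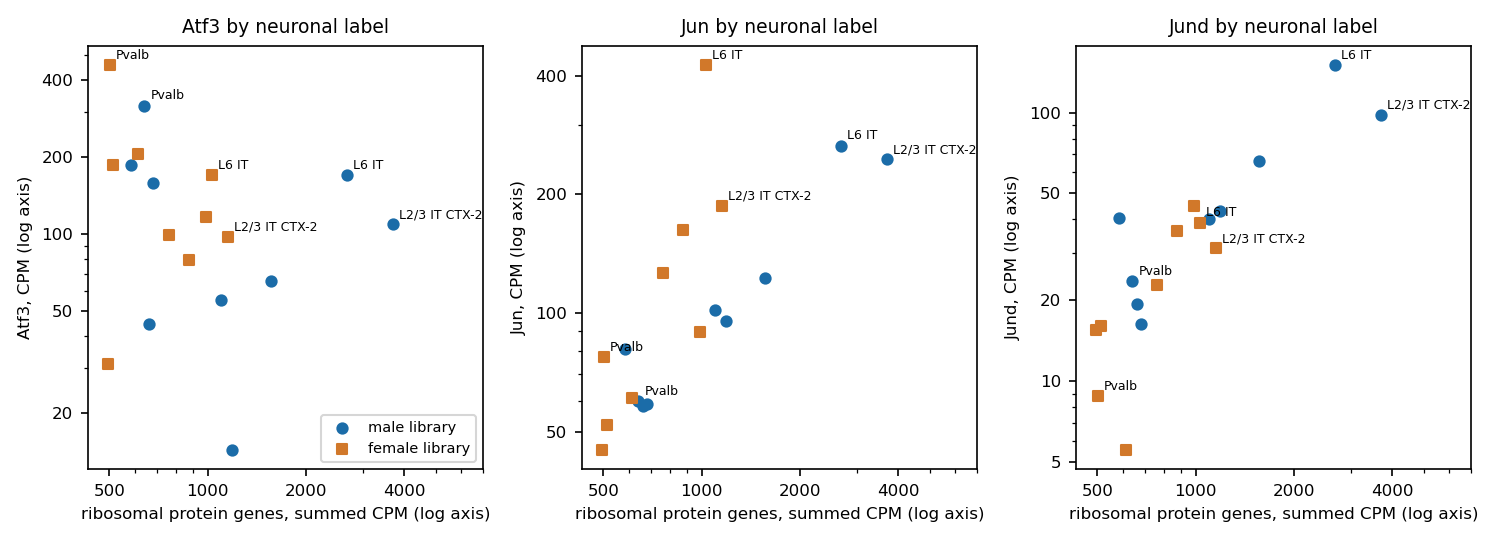
CPM of Atf3, Jun and Jund against the summed CPM of 83 ribosomal protein genes, 1 point per neuronal label and library, both axes logarithmic. Jun and Jund climb with the ribosomal sum (r = 0.96 and 0.81 for Jun), and Atf3 does not (r = -0.12 and -0.18).

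Jund, a Jun paralogue that is usually expressed steadily, ran from 16.3 CPM in Sst to 151 CPM in L6 IT in the male library. In the female library it ran from 5.56 CPM in Vip to 44.9 CPM in L6 CT. It was higher in the male than in the female library in 8 of 9 neuronal labels, with a median female to male ratio of 0.371. Free RNA held 49.7 and 38.1 CPM, which left L6 IT as the 1 label above it in both libraries (151 and 39.0 CPM), by little in the female, together with L2/3 IT CTX-2 and L5 PT of the male and L6 CT of the female library. Jund was lower in inhibitory labels, with a log2 fold change of -1.30 ± 0.368 (edgeR, adjusted p = 0.0113), and of -0.97 ± 0.342 (edgeR, adjusted p = 0.0477) without L6 IT and L2/3 IT CTX-2. Without neurons that held 2 or more microglial marker UMIs, where few nuclei remained, it was -0.45 ± 0.581 and the call was lost (edgeR, adjusted p = 0.844). Among the genes most like Jund were Tmsb10 (0.93) and Eef1a1 (0.88).

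Junb, an immediate early Jun paralogue, was sparse in neurons, with 65 and 44 UMIs. Its mean level was highest in L6 IT (45.2 and 2.44 CPM) and L2/3 IT CTX-2 (16.4 and 31.2 CPM), where 9 and 1 and then 3 and 8 UMIs were counted. In interneurons it was nearly absent, with 5 and 6 UMIs. Vip held 0 Junb UMIs in both libraries. Over summed nuclei Junb stood at 13.6 and 5.08 CPM in excitatory and 3.22 and 1.69 CPM in inhibitory neurons, beside free RNA at 10.4 and 15.2 CPM. Without L6 IT and L2/3 IT CTX-2, Junb no longer passed the filter on low counts, so a difference between inhibitory and excitatory labels was not read from its test. Among the immediate early genes outside AP-1, 5 of 10 tested of 19 were lower and 0 higher in inhibitory neurons, beside 12.7% and 11.9% of all genes, with a median log2 fold change of -0.99 against -0.05 over all genes. The lower ones included Btg2, Arc and Egr3 (15.7 and 7.62 CPM in excitatory, 1.93 and 0.563 CPM in inhibitory neurons). Like Junb, these passed the filter on low counts only through excitatory labels, so the count is not read as a result about the list. Btg2, an antiproliferative gene, stood at 18.6 and 17.8 CPM in excitatory and 8.37 and 5.91 CPM in inhibitory neurons over summed nuclei. Its test is not read. Arc, a synaptic activity gene, stood at 19.1 and 27.9 CPM in excitatory and 7.08 and 7.03 CPM in inhibitory neurons, and its test is not read either. Of the 5 stress genes tested that handling of tissue is known to raise, 1 was lower, Hsph1 at -1.62 ± 0.138 (edgeR, adjusted p = 7.41e-09), and 0 were higher.

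Fos and Fosb, partners of the Jun proteins in activity-driven AP-1, were nearly absent from the captured neurons at 7 dpi. Fos had 13 and 10 UMIs in neurons, or 2.18 and 0.906 CPM, beside free RNA at 6.21 and 1.09 CPM. In inhibitory neurons Fos was found in 0 of 327 male nuclei, with an exact 95% upper limit of 1.12%, and in 1 of 320 female nuclei. Fosb had 4 and 1 UMIs in neurons. Fos instead stood first in Astro in both libraries, at 12.4 and 15.3 CPM, from 2 and 7 UMIs in 3.77% and 9.68% of nuclei. The male value lies under the 18.6 CPM that 3 counts would give. With no filter on low counts Fos was higher in astrocytes than in neurons by 3.71 ± 0.942 on the log2 scale (edgeR, adjusted p = 8.30e-04). After thinning Fos was found in 0 of 29 male and 0 of 58 female astrocytes, against 0.730% and 0.289% of neurons. Neither gene could be read further at this depth.

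Fosl2, a longer-lived Fos paralogue, was the Fos gene that was measurable in neurons, at 18.3 and 15.8 CPM over all neurons against free RNA at 8.28 and 9.78 CPM. Its labels had no stable order. L6 IT went from 0 to 34.1 CPM and Vip from 40.6 to 5.56 CPM between the libraries. L2/3 IT CTX-1, first by mean, had 29.5 and 18.6 CPM. Inhibitory and excitatory neurons differed by 0.06 ± 0.390, for which edgeR gave an adjusted p of 0.946.

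Microglia made up the largest label, and 4 of 5 members tested were called there against neurons, beside 59.9% of all genes (33.2% higher, 26.8% lower). Jun was lower in microglia at a log2 fold change of -2.29 ± 0.282 (edgeR, adjusted p = 4.12e-08), and Atf3 at -1.88 ± 0.352 (edgeR, adjusted p = 3.39e-05). Jun in microglia, at 23.7 and 20.6 CPM, was below the free RNA of its library. Junb went the other way, higher by 1.77 ± 0.593 (edgeR, adjusted p = 0.0119; DESeq2, adjusted p = 0.0842), where the label had 18.05 and 11.6 CPM and the neurons 10.9 and 3.98 CPM. The female microglial value was below its free RNA at 15.2 CPM. Neuronal labels had equal weight and Vip held 0 Junb UMIs in both libraries, so the fitted size depends on the prior count. By mean, L6 IT (45.2 and 2.44 CPM) and L2/3 IT CTX-2 (16.4 and 31.2 CPM) stood above microglia. Fosl2 was lower at -1.05 ± 0.445 (edgeR, adjusted p = 0.0439), but the male library alone gave a log2 ratio of 0.0619, and the adjusted p was 0.0513 without neurons that held 2 or more UMIs of a shorter list of microglial markers, an alternative chosen after seeing the data. Jund differed by -0.71 ± 0.401 (edgeR, adjusted p = 0.129) and passed the threshold with the library as a block (-0.81 ± 0.254, adjusted p = 0.00593). The median of all genes in this contrast stood at 0.165 with edgeR and 0.0429 with DESeq2. Microglial markers were also read in neurons, 10 of 10 genes in both libraries, at a summed 500 and 889 CPM.

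The Unknown label, where all 5 neuronal markers were detected at a summed 8012 and 7371 CPM, held less Atf3, Jun and Jund than the neuronal labels. Snap25, a neuronal gene, stood there at 505 and 414 CPM, below free RNA at 704 and 628 CPM. Sst (564 and 474 CPM) and Vip (479 and 344 CPM) also lay below free RNA for Snap25. Of 5 members tested, 3 were lower than in the 9 neuronal labels and 0 higher, beside 30.8% of all genes called (18.2% higher, 12.6% lower). Atf3 was lower at a log2 fold change of -4.42 ± 0.557 (edgeR, adjusted p = 2.12e-07), or 21.4-fold. Jun was lower at -1.69 ± 0.301 (edgeR, adjusted p = 4.93e-05) and Jund at -1.56 ± 0.529 (edgeR, adjusted p = 0.0242). Fosl2 stood at 24.5 and 19.5 CPM there, above the 18.3 and 15.8 CPM over all neurons, and was not called. Junb was not called either (-0.21 ± 1.90; edgeR, adjusted p = 1). Although the sort selected for Cre from the Atf3 locus, Atf3 UMIs were found in 2 of 225 male and 8 of 170 female Unknown nuclei.

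In astrocytes, 2 of 5 members were called, beside 35.1% of all genes (18.8% higher, 16.3% lower). Atf3 was lower than in neurons at a log2 fold change of -2.97 ± 0.620 (edgeR, adjusted p = 2.90e-04), with 0 UMIs in 53 male nuclei, which allows a share of up to 6.72% (exact 95% interval). Since 1 of the libraries was at 0, the fitted size depends on the prior count. Jun was lower at -1.33 ± 0.369 (edgeR, adjusted p = 0.00498), yet its share differed between libraries, at 3.77% of male and 27.4% of female astrocytes. Its call was lost without neurons that held 2 or more microglial marker UMIs (-0.74 ± 0.489; edgeR, adjusted p = 0.273). Jund differed by -2.03 ± 0.816 (edgeR, adjusted p = 0.0532) and passed the threshold with the library as a block (adjusted p = 0.0216).

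**Figure D4:**
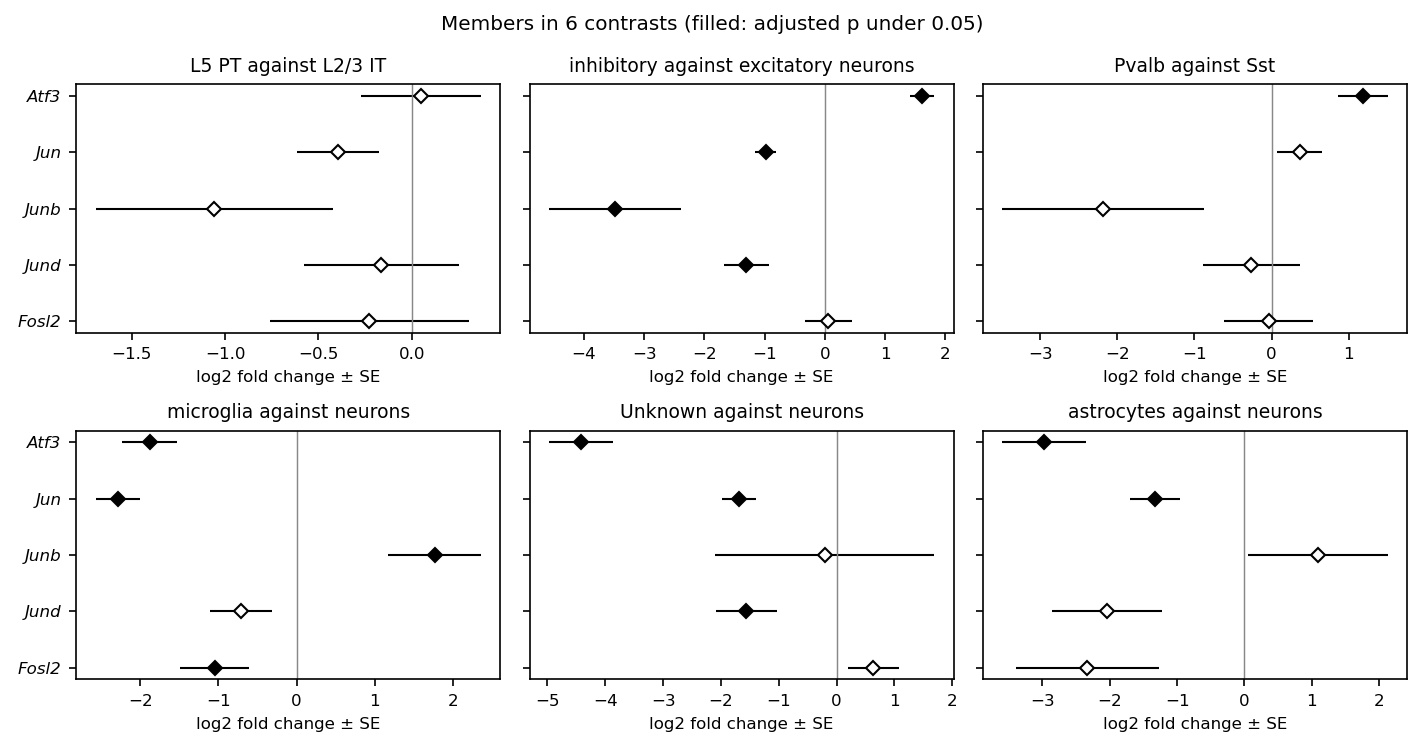
Log2 fold change with its SE for 5 members in 6 contrasts fitted by edgeR on sums per library and label. Filled diamonds have an adjusted p under 0.05, and the horizontal scales differ between panels. Atf3 is higher and Jun and Jund are lower in inhibitory neurons, where the point of Junb is not read since it passed the filter only through excitatory labels. L5 PT against L2/3 IT has no filled point.

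Atf3 and Jun dimerise, and both were sought in the same nucleus. Of 1344 male neurons 332 held an Atf3 UMI, and of 1155 female neurons 516. Jun was detected in 35.5% of male neurons with Atf3 and 24.6% without it, and in 56.0% and 36.9% of female neurons. Nuclei with Atf3 were deeper, with medians of 4347 against 3392 UMIs (male) and 10966 against 6737 (female). Within strata of label and depth quintile, the Mantel-Haenszel odds ratio of detecting Jun with Atf3 was 1.88 and 1.96. After thinning, Jun was found in 23.5% of male neurons with Atf3 and 15.0% without it, and in 28.1% and 19.2% of female neurons.

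As a level, Jun was higher in neurons with Atf3 by 0.98 ± 0.146 on the log2 scale, or 1.97-fold (edgeR with label and library as block, adjusted p = 9.54e-05). It was the 1 member of 6 that passed the filter, beside 5.18% of all genes called (1.81% higher, 3.37% lower). Jun was higher in 7 of 9 male and 8 of 9 female labels. L6 IT of the female library had 789 CPM with Atf3 and 198 CPM without it, and L5 PT of the male library 223 and 88.4 CPM. Sst was lower with Atf3 in both libraries, at 44.9 against 68.1 CPM and 50.02 against 56.2 CPM. Male L6 CT, the other exception, had 3 nuclei with Atf3 and 0 Jun UMIs in them.

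The call for Jun held after thinning (0.93 ± 0.218, edgeR, adjusted p = 0.0165) and without L6 IT and L2/3 IT CTX-2 (0.83 ± 0.154, edgeR, adjusted p = 0.00218). It was lost without the block (1.11 ± 0.354, edgeR, adjusted p = 0.372). It was also lost without neurons that held 2 or more microglial marker UMIs (0.75), where few nuclei remained and 0 genes were called. Ribosomal protein genes summed to 1585 and 801 CPM in neurons with Atf3 and 1057 and 612 CPM in those without. Mitochondrial UMIs made up 0.173% and 0.0803% with Atf3 and 0.410% and 0.175% without it. The part of both in the result was not tested. Each sum came from 1 pool of 4 animals, so the test measures spread between sums and not between animals.

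Jund was co-detected with Atf3 at odds ratios of 2.24 and 2.47, in 21.1% against 10.9% of male and 21.7% against 11.9% of female neurons. After thinning these shares were 15.1% against 6.94% and 7.22% against 5.94%, a small gap in the female library. With no filter on low counts, its level was higher with Atf3 by 1.16 ± 0.175 on the log2 scale (edgeR, adjusted p = 1.57e-08). Fosl2 had odds ratios of 1.72 and 1.39 and Junb of 1.32 and 1.87. With no filter, Fosl2 differed by 0.68 ± 0.229 (edgeR, adjusted p = 0.137), while its library log2 ratios were 0.0443 and -0.55. Among other pairs, Jun with Jund had odds ratios of 3.33 and 2.39, from 90 and 124 nuclei with both. Fos was seen with Atf3 in 4 male and 2 female nuclei, and Fosb in 1 and 1, too few to describe.

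**Figure D5:**
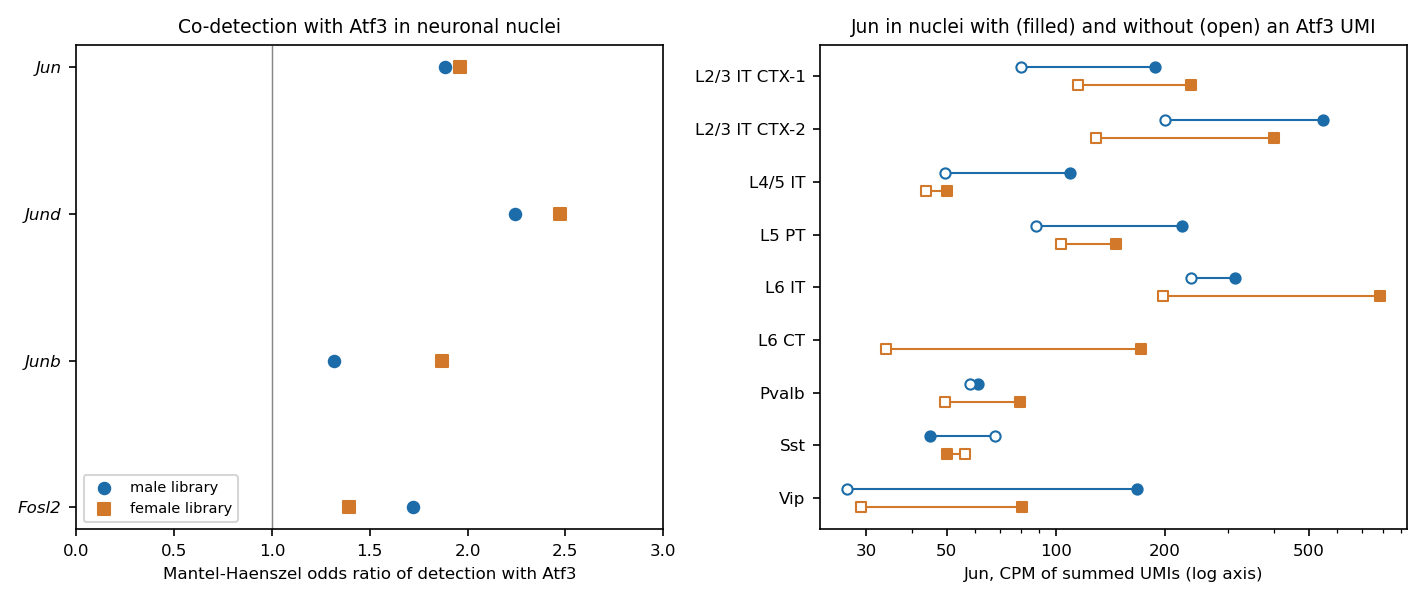
Left, odds ratio of detecting a member in neurons with Atf3, within strata of label and depth quintile, per library, with a line at 1. Right, Jun CPM on a log axis in nuclei with (filled) and without (open) Atf3, for sums of at least 10 nuclei. Jun lies to the right with Atf3 in each label drawn except Sst.

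Among kinases and phosphatases upstream of Jun, 1 gene ran close to Atf3. Dusp10, a phosphatase that inactivates JNK and p38, was the third most Atf3-like gene over the neuronal labels (lower r 0.86), after Ttll1 (0.87), a tubulin glutamylation subunit, and Sema6a (0.86), a transmembrane semaphorin. Dusp10 stood at 255 and 258 CPM in inhibitory and 41.1 and 31.4 CPM in excitatory neurons, a log2 fold change of 2.71 ± 0.179 (edgeR, adjusted p = 1.17e-10). Of 20 tested of the 23 genes on that list, 7 were higher and 3 lower in inhibitory neurons, beside 11.9% and 12.7% of all genes, with a median of 0.14 against -0.05 over all genes. Map3k5, a stress kinase counted as lower, stood at 35.0 and 34.5 CPM in excitatory and 14.2 and 14.3 CPM in inhibitory neurons. It passed the filter on low counts only through excitatory labels, so its test is not read. In Pvalb against Sst 1 of 20 was called, beside 7.79% of all genes, Mapk10, the neuronal JNK3, lower at -0.86 ± 0.182 (edgeR, adjusted p = 0.00286). In microglia 2 were higher and 13 lower of 20 tested, beside 33.2% and 26.8% of all genes, and Map3k1 rose by 3.48 ± 0.215 (edgeR, adjusted p = 3.01e-14).

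Other bZIP genes, possible partners of the family, gave 24 tested of 37 in neurons. In inhibitory neurons 5 were higher and 6 lower, beside 11.9% and 12.7% of all genes. Maf, an interneuron factor counted as higher, stood at 84.3 and 63.0 CPM in inhibitory and 9.77 and 6.68 CPM in excitatory neurons. Hlf, of the PAR subgroup known from circadian output, was counted as lower. Summed nuclei gave it 28.8 and 22.0 CPM in excitatory against 16.1 and 11.2 CPM in inhibitory neurons. Maf passed the filter on low counts through inhibitory and Hlf through excitatory labels, where each is high, so neither test is read. In Pvalb against Sst 1 was higher and 1 lower of 24, beside 3.99% and 3.8% of all genes, Creb5 at 2.05 ± 0.221 (edgeR, adjusted p = 9.55e-07) and Maf at -1.23 ± 0.277 (edgeR, adjusted p = 0.00502). Ddit3, the stress factor CHOP, was higher in L5 PT than in L2/3 IT by 0.91 ± 0.289 (edgeR, adjusted p = 0.0397). In microglia 12 were higher and 6 lower of 26 tested, beside 33.2% and 26.8% of all genes. Nfe2l2, counted as higher, stood at 173 and 214 CPM in microglia and 3.69 and 6.34 CPM in neurons. It passed the filter on low counts through microglia and astrocytes (74.3 and 37.1 CPM), where it is high, so its test is not read. Cebpa, also counted as higher, stood at 20.5 and 20.4 CPM in microglia and 0.168 and 0.543 CPM in neurons. It passed the filter on low counts through microglia and not through neurons, so its test is not read.

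Neurons with Atf3 carried more of a few other listed genes, in a contrast where 5.18% of all genes were called (1.81% higher, 3.37% lower). Of the injury genes, 2 of 7 tested were higher and 0 lower, Npy, a neuropeptide, by 1.24 ± 0.204 (edgeR, adjusted p = 2.50e-04; library log2 ratios 0.88 and 0.32) and Gap43, a growth cone protein, by 0.35 ± 0.0998 (edgeR, adjusted p = 0.0287; library log2 ratios 0.131 and 0.478). Dusp10 was the 1 of 13 upstream genes called, at 0.36 ± 0.109 (edgeR, adjusted p = 0.0481), with library log2 ratios of 0.0377 and 0.48. Of 3 stress genes tested, 2 were higher, Hspa5, a chaperone of the endoplasmic reticulum, by 0.35 ± 0.106 (edgeR, adjusted p = 0.0439) and Hsp90aa1, a cytosolic chaperone, by 0.33 ± 0.0914 (edgeR, adjusted p = 0.0263). Library log2 ratios were 0.215 and 0.384 for Hspa5 and 0.127 and 0.568 for Hsp90aa1. Of 3 immediate early genes tested, 2 were higher, Egr1 and Klf6, but both went in opposite directions in the libraries and were named here after their values were seen. Without the block 1 gene of all those tested was called in place of 206, and the 5 genes given with sizes here lost their call. After thinning, Gap43 (0.34), Hspa5 (0.26) and Hsp90aa1 (0.17) lost their call, Dusp10 turned to -0.11 and Npy was not tested, so 0 of these 5 kept it. Without L6 IT and L2/3 IT CTX-2, only Npy kept its call.

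The remaining members had their own nearest genes over the 9 labels. For Junb these were Lrp3 (lower r 0.87), Usp53 (0.85) and Rps13 (0.84), and for Fosl2 Mysm1 (0.85), Agk (0.74) and Fkbp15 (0.73). For Fos (Atg9a, Cspp1, Gm2824) and Fosb (Hk1, Npc1, Prom1) the likeness rests on a handful of UMIs.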

How the data were processed

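The deposited matrices hold counts, UMIs per gene and nucleus, which the authors made with Cell Ranger (10X 3-prime v3 libraries; file headers 7.0.1 and 7.0.0 for called nuclei and 4 for all barcodes, labels 3.1.0, build mm10). The deposited table of nuclei, made by the authors in Seurat, lists counts of UMIs and genes per nucleus, the percent of mitochondrial UMIs and the predicted cell types, of which 5 columns were not used. The deposited depth-corrected matrix was not used. UMI totals of the table and the matrices differed by at most 2 in 48 male and at most 4 in 163 female nuclei. Added reporter and plasmid sequences held 0.000481% and 0.000797% of UMIs.

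Raw UMIs were summed per library and label (CPM). Sums of 18 neuronal and 30 overall combinations were fitted with edgeR 4.0.16 (filterByExpr, TMM, quasi-likelihood; 8664 and 10642 genes; biological coefficient of variation 0.171 and 0.207), and 34 sums split by Atf3 status with label and library as block (3974 genes, at least 10 nuclei a sum). Benjamini-Hochberg adjustment covered all genes tested, with a threshold of 0.05. The procedure was tested on simulated data. No doublet caller was run and no nucleus was removed as a doublet here, so 2 nuclei in 1 droplet may add to co-detection and to markers of other cell types. DESeq2 1.42.0, other filters, blocks, thinning to 2300 UMIs (shallower nuclei left out) and left-out libraries or nuclei served as alternatives. With 2 libraries, shares carry exact 95% Clopper-Pearson intervals. Each library was made from 4 pooled animals, so its sums are paired across labels. As a check, the female minus male log2 ratios of 8664 genes correlated between the 36 pairs of neuronal labels at r from 0.0448 to 0.500.

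Named genes were the 7 members, up to 3 genes per list and contrast with the largest called change of like direction in both libraries, and up to 3 genes most like each member (Pearson r of log2 CPM over the 9 neuronal labels, lower of both libraries). Lists were other bZIP genes, kinases and phosphatases upstream of Jun, immediate early genes outside AP-1, injury genes known downstream of Atf3 and Jun, and handling stress genes. Members and lists were chosen with earlier results of these data known. Gene positions are from GENCODE (GRCm38) and promoters from RefSeq (GRCm38.p6), with an entry for 7 of 7 members. Software was Python 3.11.15, numpy 2.4.6, scipy 1.17.1, pandas 2.3.3, matplotlib 3.10.9, R 4.3.3, limma 3.58.1 and data.table in version 1.17.8.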

Additional observations from a re-analysis of the deposited data

Results flagged for a closer look

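The male and the female library gave opposite directions for several members, and no such difference was tested. Values are log2 ratios, male then female. In L5 PT against L2/3 IT, Atf3 had -0.13 and 0.32, Jund 0.18 and -0.40, and Fosl2 -0.91 and 0.61. In inhibitory against excitatory neurons, Fosl2 had 1.30 and -0.52. In Pvalb against Sst, Jun had -0.0345 and 0.57, Jund 0.47 and -0.83, and Fosl2 -0.70 and 0.37. In microglia against neurons, Fosl2 had 0.0619 and -0.90. Junb had -2.07 and 0.70 in Unknown against neurons, and -3.92 and 1.91 in astrocytes against neurons, with 0 male astrocyte UMIs. With Atf3 status, Fosl2 had 0.0443 and -0.55.

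A group of nuclei that no comparison used also held a few UMIs of the family. These were 421 male and 152 female nuclei with a neuronal label that the authors left outside their neuron subset. Their median depths were 681 and 911.5 UMIs, and microglial markers summed there to 4346 and 5153 CPM. Atf3 stood at 42.3 and 16.5 CPM (male, female), and Jun at 27.2 and 11.01 CPM. Jund had 33.2 and 11.01 CPM, Junb 24.2 and 5.50 CPM, and Fosl2 6.04 and 5.50 CPM. A count of 3 would give 9.07 and 16.5 CPM there, which no female value exceeded. Free RNA held Atf3 at 39.3 and 73.9 CPM, Jun at 51.8 and 55.4 CPM, Jund at 49.7 and 38.1 CPM, Junb at 10.4 and 15.2 CPM and Fosl2 at 8.28 and 9.78 CPM, so of these 5 only male Atf3 and Junb lay above it. The difference between the libraries was not tested.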

How the results depend on the processing

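With DESeq2, 29 of 31 member values kept direction and side of the threshold. Atf3 in Pvalb against Sst (1.19, adjusted p 0.0959) and Junb in microglia (1.36, adjusted p 0.0842) lost their call. With library as a replicate block, 28 of 30 kept it, Jund in microglia and astrocytes gained it, no other member or named gene changed, and Pvalb against Sst gave 1023 calls in place of 675.

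Leaving out neurons with 2 or more microglial marker UMIs removed 53.1% of male and 94.4% of female neurons, so few nuclei remained. Calls then numbered 49 (L5 PT), 273 (inhibitory), 68 (Pvalb against Sst), 2009 (Unknown) and 0 (Atf3 status). Jun (0.45) and Jund (0.68) in L5 PT, Junb in Unknown (0.23), Gap43 (-0.00192) and Hspa5 (-0.12) with Atf3 status reversed. Jund in inhibitory neurons (-0.45), Atf3 in Pvalb against Sst (0.54), and Jun in astrocytes (-0.74) and with Atf3 status (0.75) lost their call, 1 member gained one, and 22 of 58 named genes of the lists lost theirs. Leaving out neurons by a shorter list of microglial markers (7.66% and 9.26%), chosen after seeing the data, kept 29 of 31 member values, with Fosl2 in microglia (-1.03) losing and Jund in astrocytes gaining a call. Dropping L6 IT and L2/3 IT CTX-2, also chosen after seeing the data, kept 5 of 5 member values on their side, Junb was not tested, and 7 of 18 named genes of the lists lost their call.

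For Atf3 status, calls numbered 365 with no filter, 1 without the block and 15 after thinning, in place of 206. Jun without the block was 1.11 (adjusted p 0.372), and after thinning Dusp10 was -0.11 and Gap43, Hspa5 and Hsp90aa1 lost their call. Mean odds ratios with Atf3 were 1.87 for Jun with depth deciles, and 2.09 for Jun, 2.55 for Jund and 1.84 for Fosl2 without depth strata.

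A single library leaves no residual spread for a test. Ranges over single libraries were 1.65 to 1.91 (Atf3), -1.02 to -0.87 (Jun) and -2.95 to -1.97 (Junb, whose test there is not read) in inhibitory neurons, -1.65 to -1.55 (Atf3), -2.18 to -1.89 (Jun) and -0.90 to 0.0619 (Fosl2) in microglia, -4.40 to -4.04 (Atf3) and -1.49 to -1.37 (Jund) in Unknown, and -7.55 to -2.66 (Atf3) and -2.58 to -1.04 (Jun) in astrocytes.

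The cause of these changes was not tested, beyond the fewer nuclei or sums that an alternative leaves. There are 2 libraries of 1 sex each, without uninjured controls, and nuclei were selected through Atf3. Counts of Fos, Fosb and Junb were too low for most labels, and a nucleus without a UMI is not shown to lack the RNA.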
